A study of Mus musculus with 40 samples.

Results

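Blood stem cells (HSCs) that had diluted a pulse of H2B-GFP, called GFP-low HSCs here, were compared between mice labelled HIRA KO and mice labelled WT. The comparison takes 6 of the 40 RNA sequencing libraries of the series, 3 labelled KO and 3 labelled WT. All come from 1 table of FPKM values (fragments scaled by gene length and by a factor for each library). Of 16476 genes in that table, 10705 had 1 FPKM or more in at least 3 of the 6 libraries and were tested. The KO mice were C57BL/6 animals with the genotype Mx1-Cre; Hira fl/fl; Rosa26-M2rtTA; TetOP-H2B-GFP, in which doxycycline switches on a green fluorescent histone H2B and Mx1-Cre deletes Hira after poly(I:C). The labels of the other mice say C57BL/6 and WT, and whether those mice carried Mx1-Cre or floxed alleles is not given in the sources used here. The protocol gives one treatment for both groups, doxycycline at 2 mg/ml, in drinking water sweetened by sucrose at 10 mg/ml, for 6 weeks and then 2 doses of 20 µg poly(I:C), an RNA mimic of viral infection and inducer of interferon. Bone marrow was taken 15 days after the last dose, which was 17 days after doxycycline stopped, and HSCs were sorted by their GFP level. Mx1-Cre acts in many interferon-responsive cell types, so the deletion was not limited to HSCs. The sources used here do not give the number of cells or mice behind a library, nor the age of the mice. The question was how HIRA deletion alters RNA levels once HSCs have divided.

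HIRA is the core of a chaperone complex that deposits the replacement histone H3.3 independently of replication, with UBN1 or UBN2 and CABIN1 as partners and ASF1A as the donor of H3.3. The canonical histones H2A, H2B, H3.1, H3.2 and H4 come instead from clustered genes that are read mostly in S phase. H2B-GFP made during the pulse is shared between daughter cells at each division, so a GFP-low HSC has divided more often than a GFP-high one. Most HSCs rest for long periods, and division is often followed by loss of stem cell function.

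The 6 libraries held 6.34e+06 to 9.29e+06 recovered reads outside Rn45s, the 45S pre-ribosomal RNA, which took 16.6% to 25.5% of the FPKM total. The libraries labelled KO resembled each other less (r = 0.936 to 0.958 on log2(FPKM + 1), across genes) than those labelled WT did (0.980 to 0.982), and pairs of a KO and a WT library gave 0.954 to 0.972. HSC markers were present in every library, among them Procr, the protein C receptor, at 24.1 to 45.5 FPKM in KO and 30.9 to 36.4 FPKM in WT. Of 45 HSC-enriched genes, 42 were tested. Of 18 T and NK cell markers in the table, 10 were under 1 FPKM in all 6 libraries, among them Cd3e, a chain of the T cell receptor complex, at most 0.025 FPKM in KO and 0.024 FPKM in WT. Others were present in every library, among them the signalling genes Lat (9.59 to 17.7 FPKM in KO and 10.4 to 13.7 FPKM in WT) and Lck (3.20 to 7.57 FPKM in KO and 5.14 to 5.46 FPKM in WT) and the granule gene Nkg7 (46.9 to 88.1 FPKM in KO and 48.8 to 65.4 FPKM in WT). The T cell receptor chain Cd3d reached 1.57 FPKM in KO replicate 3 and was at most 0.164 FPKM in the other KO libraries and 0.489 FPKM in WT. KO replicate 3 stood apart in markers of neutrophils, granulocytic white cells: S100a8 was at 1108, 2234 and 13430 FPKM in KO replicates 1, 2 and 3 and at 1591, 1700 and 1746 FPKM in WT. KO replicate 2 had Xist at 0.403 FPKM and the Y-linked gene Ddx3y at 5.01 FPKM, while the other 5 libraries had Xist at 26.9 to 36.2 FPKM. These values are male-type in KO replicate 2 and female-type in the other 5 libraries, so KO and WT were not matched for sex. Prg2, an eosinophil granule gene, was at 0.892, 0.355 and 16.1 FPKM in KO and at 98.6, 1.21 and 1.04 FPKM in WT, highest in WT replicate 1 and next in KO replicate 3.

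Hira did not separate the labels. It was at 1.07, 2.74 and 2.34 FPKM in KO and at 1.58, 2.39 and 2.39 FPKM in WT. The lowest and the highest value were both in KO libraries, so the groups overlapped. The mean was 2.05 ± 0.870 FPKM in KO and 2.12 ± 0.468 FPKM in WT (SD, n = 3 each), a log2 difference of -0.07 (95% interval -0.64 to 0.51, exact permutation p = 0.8, two-sided, smallest possible p = 0.1). Hira (chromosome 16, 18876750 to 18970309 in GRCm38, mm10) rested on 72 to 170 reads per library, and a value over all exons does not show whether a floxed part is missing. The knockout label is therefore not checked by these values, and KO stands for the label throughout.

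Of the genes around HIRA, H3f3a, 1 of the 2 genes that encode H3.3, had the smallest p. It was at 100.1, 107.9 and 109.6 FPKM in KO and at 75.8, 77.1 and 68.9 FPKM in WT. Every KO library was above every WT library, with a log2 difference of 0.51 (SE 0.11), but the gene did not pass over all genes (limma's adjusted p = 0.245). H3f3b, the other H3.3 gene, was at 307 ± 21.9 FPKM in KO and 293 ± 8.39 FPKM in WT (SD, n = 3 each), and its groups overlapped (log2 difference 0.07). The partners Ubn1 and Ubn2 had log2 differences of 0.19 each, Cabin1 one of -0.08 and Asf1a one of 0.33. Atrx, which places H3.3 at repeats together with Daxx, was at 2.94, 2.94 and 2.80 FPKM in KO and at 4.60, 3.04 and 4.58 FPKM in WT. All KO values lay below all WT values (log2 difference -0.37, adjusted p = 0.637), while Daxx had a log2 difference of 0.16. Dek, a chromatin protein that binds H3.3, had one of -0.34, and the histone-binding proteins Rbbp4 and Rbbp7 had 0.04 and -0.11. Of the 12 genes of this list, 0 passed.

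Over all 10705 genes, 0 passed at an adjusted p under 0.05 by limma on log2(FPKM + 1), and 917 (8.57%) had an unadjusted p under 0.05, 500 higher (4.67%) and 417 lower (3.9%) in KO. Limma with library quality weights called 3 genes, a joint fit with GFP-high HSCs 7, the fit without KO replicate 1 also 7, and limma-voom on the recovered reads 0. In 1508 genes (14.1%) the groups did not overlap, 821 (7.67%) with all KO libraries above all WT libraries and 687 (6.42%) below. The median log2 difference was -0.004. The values were scaled to the same median ratio in every library, which holds this median near 0. It therefore cannot show a shift of all genes. The shares above are the background for the lists below.

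An adjusted p under 0.1 was found in 6 genes, all higher in KO, at 0.0858 each after rounding. Rhag, the Rh-associated glycoprotein of the red cell membrane (chromosome 17, 40811099 to 40844094), was at 9.91, 17.3 and 18.1 FPKM in KO and at 2.92, 2.44 and 4.00 FPKM in WT. The lowest KO value was above the highest WT value, and the log2 difference was 1.94 (95% interval 1.39 to 2.49). Zg16, a lectin-like secretory granule protein first known from pancreas, was at 6.12, 8.85 and 8.34 FPKM in KO and at 1.82, 2.60 and 2.22 FPKM in WT, on 25 to 97 reads (log2 difference 1.44, 95% interval 1.02 to 1.86). Gadd45g, a stress-induced protein that restrains growth, was at 21.0, 24.2 and 16.7 FPKM in KO and at 6.34, 7.48 and 4.19 FPKM in WT. None of its KO values came near the WT values, and the log2 difference was 1.64 (95% interval 1.16 to 2.12). Dok2, an adaptor that dampens tyrosine kinase signalling in blood cells, was at 68.1, 59.8 and 57.7 FPKM in KO and at 33.2, 24.3 and 26.5 FPKM in WT (log2 difference 1.13, 95% interval 0.79 to 1.46). The long noncoding RNA 2310040G24Rik was at 12.9, 11.5 and 11.7 FPKM in KO and at 5.64, 4.04 and 3.61 FPKM in WT (log2 difference 1.28). Cd24a, a small surface glycoprotein that marks several blood lineages, was at 194.0, 216.4 and 239.0 FPKM in KO and at 113.6, 112.1 and 124.5 FPKM in WT. Its KO mean was 216.5 ± 22.5 FPKM and its WT mean 116.7 ± 6.75 FPKM (SD, n = 3 each, log2 difference 0.88, 95% interval 0.61 to 1.16).

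**Figure D1:**
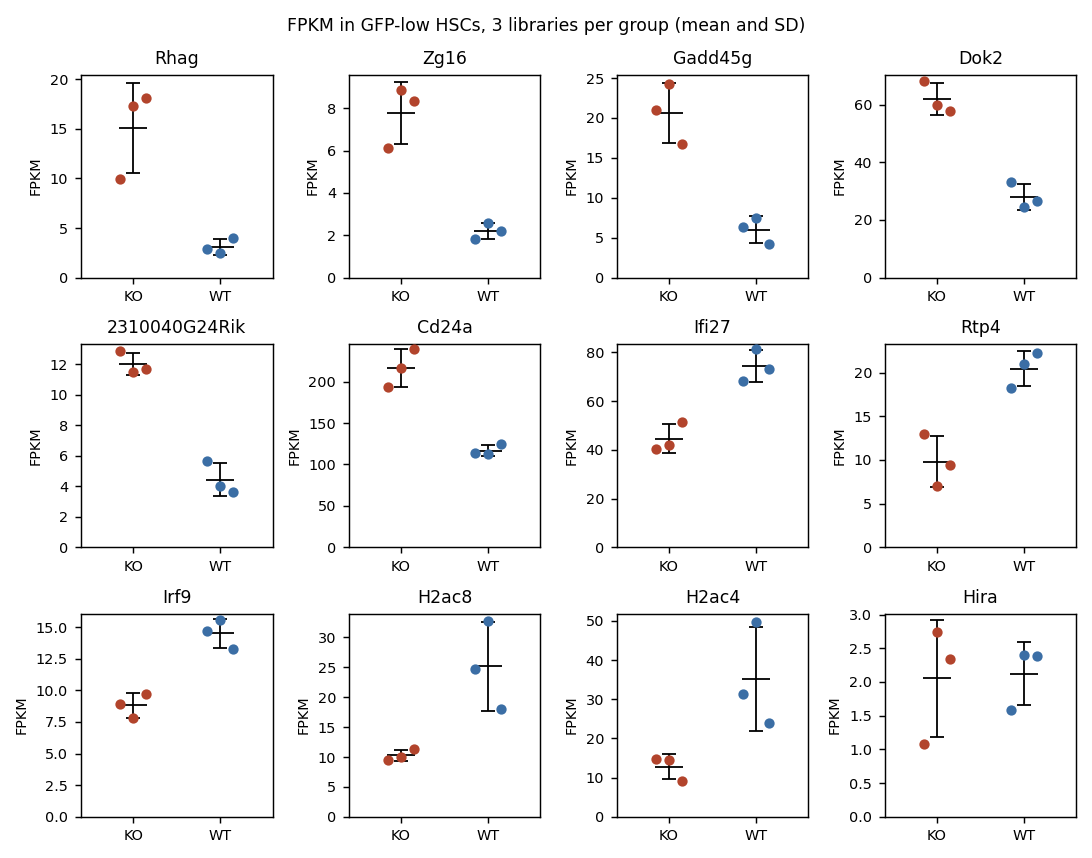
FPKM of 12 genes in the 3 KO libraries (left in each panel) and the 3 WT libraries (right) of GFP-low HSCs, with the mean and SD as bars; each axis starts at 0. In the 6 genes of smallest p every KO point lies above every WT point, in Ifi27, Rtp4, Irf9, H2ac8 and H2ac4 every KO point lies below, and in Hira the groups overlap.

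Next by p among the genes higher in KO came Tuba8, an alpha tubulin (log2 difference 0.79), Itga2b, and Selenom, a selenoprotein of the endoplasmic reticulum (0.84). Prkab1, a regulatory subunit of the energy sensor AMPK (0.83), Nmnat2, an enzyme of NAD synthesis (1.59), and Soat2, which esterifies cholesterol (0.87), completed the 12. Their adjusted p was 0.167 each. Nmnat2 was at 23.3, 10.4 and 13.4 FPKM in KO and at 5.61, 4.16 and 3.25 FPKM in WT, with KO replicate 1 well above the other KO libraries. In all 12 genes the groups did not overlap (all KO above all WT in 7.67% of all genes). The 12 were chosen by small p in these same libraries, so this largely follows from the choice.

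Among the 12 genes lower in KO with the smallest p, H2ac8 and H2ac4 encode replication-dependent histone H2A, and Ifi27, Rtp4 and Gm4951 belong to the interferon response. Ctsw, cathepsin W, a protease known from cytotoxic lymphocytes, was at 7.70, 4.20 and 7.01 FPKM in KO and at 13.6, 15.6 and 14.6 FPKM in WT (log2 difference -1.13, SE 0.20, adjusted p = 0.167). F2r, the thrombin receptor PAR1, was at 15.3, 13.2 and 14.4 FPKM in KO and at 22.8, 23.2 and 24.3 FPKM in WT (log2 difference -0.68, adjusted p = 0.177). Both groups were tight in F2r and lay well apart. Sh2d5, an SH2 domain protein, had a log2 difference of -0.88, and Slc25a33, a mitochondrial carrier of pyrimidine nucleotides, one of -0.82. The pseudogene Gm11694 (log2 difference -1.12, 7 to 30 reads) and the small nucleolar RNA Snora41 (-1.47, 2 to 19 reads) rest on few reads.

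Erythroid genes stood higher in KO GFP-low HSCs. Of 26 tested members of the list, 25 had a positive log2 difference and 15 had all KO libraries above all WT libraries, which is 57.7% of the list against 7.67% of all tested genes. The list median was 0.78, beside -0.004 over all genes, and 0 members passed. Klf1, the erythroid transcription factor, was at 16.1, 26.8 and 45.8 FPKM in KO and at 9.37, 7.07 and 11.2 FPKM in WT (log2 difference 1.48, adjusted p = 0.245). Gata1, the factor that drives erythroid and megakaryocytic differentiation, was at 15.4, 21.7 and 29.6 FPKM in KO and at 7.34, 14.4 and 14.01 FPKM in WT (log2 difference 0.86, adjusted p = 0.489). In both genes KO replicate 3 was highest, and in Gata1 the lowest KO value was close to the highest WT values. The beta globin gene Hbb-bt was at 282.7, 172.9 and 656.9 FPKM in KO and at 89.2, 43.5 and 90.8 FPKM in WT (log2 difference 2.15, 95% interval 1.13 to 3.18, adjusted p = 0.239). Car2, a carbonic anhydrase of red cells and their precursors, was at 779, 855 and 790 FPKM in KO and at 570, 641 and 530 FPKM in WT, with a log2 difference of 0.48. Unlike the globin, Car2 was as high in KO replicates 1 and 2 as in KO replicate 3. The stem and erythroid factor Tal1 was at 18.9, 18.7 and 15.7 FPKM in KO and at 10.5, 13.7 and 13.7 FPKM in WT (log2 difference 0.47), while the groups overlapped in Epor, the erythropoietin receptor (0.57), and in Tfrc, the transferrin receptor (0.47).

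The erythroid list level, the mean of log2(FPKM + 1) over members, was 4.04, 4.24 and 5.11 in KO and 3.60, 3.38 and 3.73 in WT. KO replicate 3 carried the highest level, and KO replicates 1 and 2 were still above all WT libraries. Without KO replicate 3, 23 of 26 members were positive, 15 did not overlap upward (all genes 15.3% on that count) and the median was 0.57. The neutrophil list level moved in the same library, at 4.52, 5.55 and 7.93 in KO against 5.04, 5.08 and 5.15 in WT; in KO replicate 1 it was below every WT library while the erythroid level was above them. In bulk RNA, more erythroid-primed cells and more erythroid RNA per cell cannot be told apart.

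**Figure D2:**
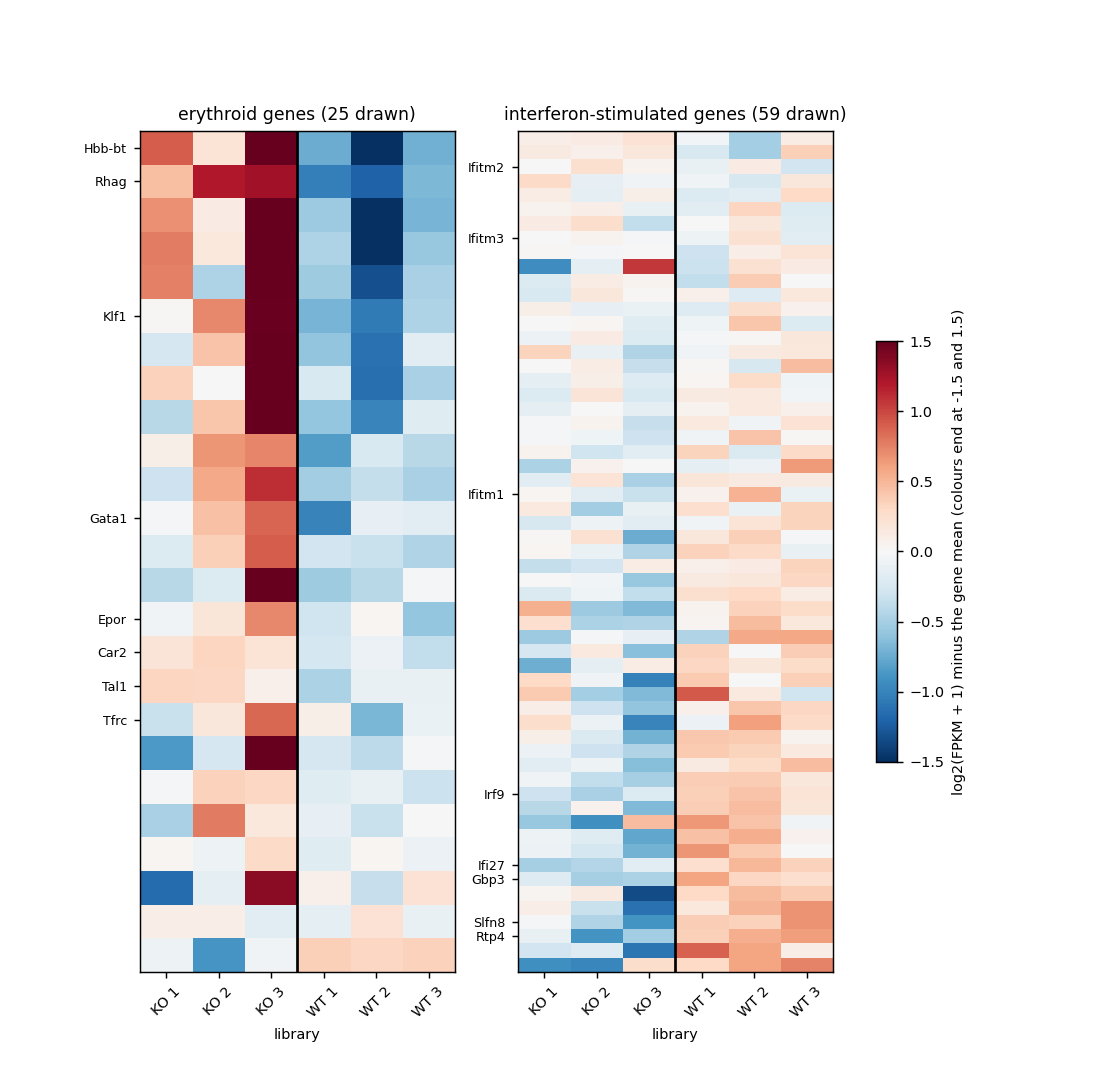
Erythroid genes (left, 25 of the tested members) and interferon-stimulated genes (right, 59 of the tested members), some of them labelled, in the 3 KO and 3 WT libraries of GFP-low HSCs, ordered by log2 difference; colours show log2(FPKM + 1) minus the gene's mean over the 6 libraries and end at -1.5 and 1.5. Erythroid genes are mostly red in KO, most deeply in KO replicate 3, and interferon-stimulated genes are mostly blue in KO and red in WT.

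Platelet-lineage genes were mixed. In 7 of 26 tested megakaryocyte and platelet genes (26.9%, all genes 7.67%) all KO libraries were above all WT libraries. In 3 (11.5%, all genes 6.42%) all were below. The list median was 0.10 (0.20 without KO replicate 3, 0.16 without WT replicate 1, 0.04 without WT replicate 2). Itga2b (CD41), the alpha subunit of the platelet fibrinogen receptor, was at 46.1, 69.7 and 43.2 FPKM in KO and at 25.5, 21.0 and 24.7 FPKM in WT (log2 difference 1.10, adjusted p = 0.167). Pf4, platelet factor 4, was at 326, 211 and 293 FPKM in KO and at 104, 176 and 87.9 FPKM in WT (log2 difference 1.21, adjusted p = 0.239). The thrombin receptor F2r, given above, had all KO libraries below all WT libraries. Among mast cell, basophil and eosinophil markers, Cpa3, a mast cell carboxypeptidase, was at 10.0, 14.2 and 9.52 FPKM in KO and at 3.96, 1.601 and 4.71 FPKM in WT (log2 difference 1.53, adjusted p = 0.190). The cytokine gene Il4 had a log2 difference of 0.95 with no overlap. Prg2, given above, and Ear2, an eosinophil ribonuclease, were high in WT replicate 1 and KO replicate 3. Ear2 was at 1.62, 1.65 and 31.7 FPKM in KO and at 32.4, 1.42 and 1.88 FPKM in WT. Not every granule gene of this list followed: Cpa3 was not the highest of its group in either library.

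Interferon-stimulated genes stood lower in KO. Of 60 tested members 52 had a negative log2 difference, 21 (35%) had all KO libraries below all WT libraries and 0 had them all above, beside 6.42% and 7.67% of all genes. The list median was -0.35, and 0 members passed. Irf9, the DNA-binding subunit of the interferon-activated ISGF3 complex, was at 8.96, 7.78 and 9.71 FPKM in KO and at 14.7, 15.6 and 13.2 FPKM in WT (log2 difference -0.66, adjusted p = 0.245). The highest KO value was below the lowest WT value. Ifi27, an interferon-induced protein of mitochondrial and nuclear membranes, was at 40.4, 41.9 and 51.4 FPKM in KO and at 68.4, 81.3 and 73.1 FPKM in WT (log2 difference -0.73, adjusted p = 0.183). Rtp4, which transports receptors and binds RNA, was at 12.9, 7.07 and 9.45 FPKM in KO and at 18.3, 21.0 and 22.2 FPKM in WT (log2 difference -1.02, adjusted p = 0.216). The predicted gene Gm4951, of the interferon-inducible GTPase family, had a log2 difference of -1.23. Not every member followed: Ifitm2 and Ifitm3, antiviral membrane proteins that HSCs make at high levels, were at 610 ± 56.1 and 815 ± 22.9 FPKM in KO and at 537 ± 77.5 and 814 ± 119 FPKM in WT (SD, n = 3 each), and their groups overlapped.

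Promoters of 2 genes of this list are shown because they hold the letters that interferon factors of the STAT and IRF families are known to read. Both belong to genes whose KO libraries were all below their WT libraries: Gbp3, a guanylate-binding GTPase (chr3:142559794-142560093, plus strand), was at 6.79, 5.31 and 5.42 FPKM in KO and 12.4, 10.0 and 9.54 FPKM in WT, and Slfn8, a member of the Schlafen family (chr11:83020761-83021060, minus strand), was at 2.90, 1.91 and 1.14 FPKM in KO and 4.16, 4.06 and 5.35 FPKM in WT. The sequences are RefSeq's on GRCm38.p6, read 5′ to 3′ on the gene's strand, and the capitals mark GAAANNGAAA, the core of the interferon-stimulated response element, on either strand.
Gbp3: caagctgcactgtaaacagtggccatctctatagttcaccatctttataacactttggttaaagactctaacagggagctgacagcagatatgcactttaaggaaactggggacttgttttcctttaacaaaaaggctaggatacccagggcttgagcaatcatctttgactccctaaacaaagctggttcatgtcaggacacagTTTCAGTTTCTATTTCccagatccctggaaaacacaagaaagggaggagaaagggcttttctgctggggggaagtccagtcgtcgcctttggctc
Slfn8: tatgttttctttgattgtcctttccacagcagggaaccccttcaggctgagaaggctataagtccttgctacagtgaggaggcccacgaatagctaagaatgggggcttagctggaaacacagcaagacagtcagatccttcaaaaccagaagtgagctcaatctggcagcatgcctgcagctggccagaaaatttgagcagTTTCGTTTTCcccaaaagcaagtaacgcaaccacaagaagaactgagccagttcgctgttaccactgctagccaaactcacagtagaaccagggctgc
The capitals of Gbp3 are 2 overlapping matches, and Slfn8 has 1 match. Of the 60 tested genes 46 had a promoter sequence, and 25 of those (54.3%) held the element, against 3.84% of the 8571 tested genes with a sequence and 3.44% of all 32851 promoter entries. Genes with the element had a median log2 difference of -0.45 (21 of 25 negative) and genes without a match one of -0.32 (18 of 21 negative). A match is a description of these 300 bases and not a measured binding site.

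Genes of antigen presentation were on the lower side too. Of 22 tested MHC class I genes 20 had a negative log2 difference (median -0.25). Wholly below WT lay 2 (9.09%, all genes 6.42%) and wholly above 1 (4.55%, all genes 7.67%), shares near the background. Without WT replicate 3, whose class I level was the lowest in WT, 10 of 22 lay wholly below (45.5%, all genes 9.33%). H2-T22, a nonclassical class I molecule, was at 18.7, 19.7 and 10.8 FPKM in KO and at 25.4, 26.5 and 22.97 FPKM in WT (log2 difference -0.62, adjusted p = 0.516), and Tap1, the peptide transporter, had a log2 difference of -0.47. B2m, the light chain, was at 3896 ± 457 FPKM in KO and 4689 ± 334 FPKM in WT, and H2-K1 at 710 ± 127 and 772 ± 69.4 FPKM (SD, n = 3 each); both overlapped. Of 12 class II genes 9 were negative (median -0.28), with 2 wholly below WT (16.7%, all genes 6.42%) and 0 wholly above (all genes 7.67%). Cd74, the invariant chain, was at 34.0, 17.9 and 26.5 FPKM in KO and at 56.9, 42.9 and 34.8 FPKM in WT (log2 difference -0.77), and H2-Eb1, a class II beta chain, had a log2 difference of -1.14 with overlapping groups. Interferon-stimulated, class I and class II levels were all lowest in KO replicate 3. Without that library the interferon-stimulated list had 51 of 60 members negative and a median of -0.28. Class I then had 16 of 22 negative and a median of -0.12, and class II 7 of 12 negative and a median of -0.21.

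Replication-dependent histone genes were lower in KO in part. Of 42 tested members 10 (23.8%, all genes 6.42%) lay wholly below WT and 0 wholly above. The median was -0.32, which was -0.11 without WT replicate 2, the library of highest histone level. H2ac8, an H2A gene of the chromosome 13 cluster (23570663 to 23571220), was at 9.55, 9.99 and 11.3 FPKM in KO and at 24.7, 32.8 and 17.9 FPKM in WT (log2 difference -1.18, 95% interval -1.64 to -0.71, adjusted p = 0.167). H2ac4, another H2A gene of that cluster (23751088 to 23751592), was at 14.7, 14.5 and 9.25 FPKM in KO and at 31.3, 49.9 and 24.1 FPKM in WT (log2 difference -1.35, adjusted p = 0.216). The KO values of H2ac8 were close to each other, and the WT values of both genes spread widely. H4c3, an H4 gene, was at 0.810, 0.483 and 1.24 FPKM in KO and at 3.58, 2.87 and 3.06 FPKM in WT (log2 difference -1.19, adjusted p = 0.167), and H3c13, an H3 gene, had a log2 difference of -0.67. H4c9, the member of highest level, went the other way at 49.5, 43.9 and 47.8 FPKM in KO and 30.5, 45.8 and 36.0 FPKM in WT, with overlap. Histone genes are near-identical copies whose reads can be split among members, and most of their mRNA has no polyA tail, so these libraries caught only part of it.

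The promoters of H2ac8 (chr13:23571171-23571470, minus strand) and H2ac4 (chr13:23750838-23751137, plus strand) are shown because both carry the histone octamer and CCAAT boxes. Capitals mark ATTTGCAT and CCAAT on either strand, in RefSeq sequence on GRCm38.p6.
H2ac8: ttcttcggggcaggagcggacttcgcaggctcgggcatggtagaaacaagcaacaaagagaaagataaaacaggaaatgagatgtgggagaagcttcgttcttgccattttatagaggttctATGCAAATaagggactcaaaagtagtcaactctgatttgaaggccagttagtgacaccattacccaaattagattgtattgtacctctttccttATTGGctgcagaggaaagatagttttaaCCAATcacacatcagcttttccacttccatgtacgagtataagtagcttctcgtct
H2ac4: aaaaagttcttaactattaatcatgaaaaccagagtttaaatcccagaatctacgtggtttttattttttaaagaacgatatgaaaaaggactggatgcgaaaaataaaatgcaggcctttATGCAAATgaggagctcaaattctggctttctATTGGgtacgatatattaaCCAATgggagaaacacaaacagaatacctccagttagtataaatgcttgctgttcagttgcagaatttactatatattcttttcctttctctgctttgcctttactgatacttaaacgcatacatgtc
Each holds 1 octamer and 2 CCAAT matches. The octamer, which OCT1 is known to bind in H2A and H2B promoters, was in 9 of 33 histone genes with a sequence (27.3%), against 1.59% of tested genes, and CCAAT in 30 of 33 (90.9%) against 43.5%. H2ac8 is read away from H2bc8, an H2B gene whose own promoter entry (23571150 to 23571449) covers almost the same bases on the other strand. H2bc8 was at 2.55, 10.4 and 7.24 FPKM in KO and at 10.6, 9.76 and 19.7 FPKM in WT (log2 difference -0.98, adjusted p = 0.569), so the groups of this neighbour overlapped.

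DNA replication genes leaned the same way by smaller amounts. Of 48 tested members 39 had a negative log2 difference, and the median was -0.18 (-0.12 without KO replicate 1). Wholly below WT lay 9 (18.8%, all genes 6.42%) and wholly above 0. Rfc1, the large subunit of the clamp loader, was at 5.67, 4.77 and 5.84 FPKM in KO and at 8.56, 8.52 and 8.84 FPKM in WT (log2 difference -0.59, adjusted p = 0.314). Dnmt1, which copies DNA methylation to the new strand, was at 14.2, 18.6 and 18.4 FPKM in KO and at 25.1, 25.3 and 25.4 FPKM in WT (log2 difference -0.55, 95% interval -0.87 to -0.23, adjusted p = 0.346). The 3 WT values of Dnmt1 were almost equal and all KO values lay below them. Pcna, the sliding clamp, was at 82.1 ± 9.02 FPKM in KO and 99.0 ± 4.41 FPKM in WT (SD, n = 3 each, log2 difference -0.27), and Dut, which clears dUTP, had a log2 difference of 0.07. The Dnmt1 entry shown is the first of that gene to hold the match, so it may not be the gene's main start. This promoter entry (chr9:20952574-20952873, minus strand) is shown for its match to TTTCGCG, a site of E2F factors, in capitals on either strand.
Dnmt1: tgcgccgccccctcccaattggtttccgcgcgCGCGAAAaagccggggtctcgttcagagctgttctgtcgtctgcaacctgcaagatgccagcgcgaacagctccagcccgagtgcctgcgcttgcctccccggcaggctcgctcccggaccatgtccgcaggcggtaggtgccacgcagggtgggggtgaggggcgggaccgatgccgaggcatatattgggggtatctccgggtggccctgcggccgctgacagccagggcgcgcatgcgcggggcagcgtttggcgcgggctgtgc
This match was in 10 of 39 replication genes with a sequence (25.6%) and in 2.24% of tested genes.

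Mitosis genes had 38 of 49 negative members and a median of -0.18, with 3 wholly below WT, which is a share near the background. Prc1, which bundles the central spindle, had a log2 difference of -0.57, and Ndc80, of the kinetochore, one of -0.36. Ccnb2 and Cdc20, the most abundant members, differed by 0.02 and 0.05. KO replicate 3 had the highest mitosis level, at 2.96, 3.25 and 3.78 in KO replicates 1, 2 and 3 and 3.33, 3.63 and 3.51 in WT. Without that library 48 of 49 mitosis genes were negative, 26 of them wholly below WT (all genes 14.3% on that count), and the median was -0.38; 44 of 48 replication genes were negative with a median of -0.27. Without KO replicate 1, the lowest library, the mitosis median was -0.05 and 28 of 49 were negative, and it was -0.10 without KO replicate 2 and -0.09 without WT replicate 2. The mitosis median thus depended on which libraries were counted.

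Inhibitors of the cell cycle and markers of rest had 5 of 19 tested members wholly above WT (26.3%, all genes 7.67%). Another 2 lay wholly below (10.5%, all genes 6.42%), and the median was 0.17. Btg2, which restrains proliferation and is also a p53 target, was at 5.96, 6.86 and 13.9 FPKM in KO and at 2.99, 3.31 and 1.86 FPKM in WT (log2 difference 1.35, adjusted p = 0.245). Cdkn1a (p21) was at 2.29, 3.03 and 2.69 FPKM in KO and at 1.10, 1.30 and 1.21 FPKM in WT (log2 difference 0.73, adjusted p = 0.300), on 34 to 83 reads. Cdkn2d (p19) was at 55.5 ± 0.159 FPKM in KO and 44.2 ± 6.56 FPKM in WT (SD, n = 3 each, log2 difference 0.33), and Txnip, which slows glucose uptake, was at 273, 188 and 101 FPKM in KO and 182, 174 and 213 FPKM in WT. The p53 target list as a whole had a median of 0.00, and Trp53 itself differed by 0.01. Of its 26 members 4 lay wholly above WT (15.4%, all genes 7.67%) and 1 wholly below (3.85%, all genes 6.42%).

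Immediate-early and stress genes had 8 of 24 tested members (33.3%, all genes 7.67%) wholly above WT and 2 (8.33%, all genes 6.42%) wholly below. The list had 19 positive members and a median of 0.29. Besides Gadd45g, its relative Gadd45b was at 6.79, 7.11 and 8.71 FPKM in KO and at 3.14, 3.94 and 3.64 FPKM in WT (log2 difference 0.90, adjusted p = 0.167). Junb, an AP-1 subunit, was at 14.5, 23.2 and 26.8 FPKM in KO and at 9.28, 9.27 and 10.4 FPKM in WT (log2 difference 1.04, adjusted p = 0.224). Atf4, the factor of the integrated stress response, was at 102.7, 97.6 and 100.6 FPKM in KO and at 80.3, 77.5 and 75.3 FPKM in WT (log2 difference 0.36, adjusted p = 0.428). Hspa8, a constitutive heat shock protein, differed by 0.09. Glutathione S-transferases, detoxifying enzymes, had 5 of 17 wholly above WT (29.4%, all genes 7.67%) and 0 below. Mgst3 was at 32.2, 29.9 and 37.8 FPKM in KO and at 20.0, 21.2 and 18.4 FPKM in WT (log2 difference 0.71, adjusted p = 0.190), and Gsta4 (0.65), Gstm1 (0.49), Gsto1 (0.26) and Gstm2 (1.10) also had no overlap.

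Granulocyte genes followed single libraries. All 21 tested neutrophil markers had a positive log2 difference (median 0.91), but in 1 of 21 only (4.76%, all genes 7.67%) were all KO libraries above all WT libraries. That gene was Cxcr2, a chemokine receptor, at 1.25, 2.11 and 3.10 FPKM in KO and 0.291, 0.514 and 0.411 FPKM in WT. The summed FPKM of the listed markers spanned 2676 to 32719 in KO and 4253 to 4751 in WT, and 0 of the 22 listed markers were at 0 in all KO or all WT libraries. Retnlg, a neutrophil resistin-like protein, was at 20.0, 52.5 and 329 FPKM in KO and 23.8, 19.8 and 11.1 FPKM in WT, and S100a9 followed S100a8. Without KO replicate 3 the median was -0.11 and 14 of 21 were negative, and without KO replicate 1 the median was 1.71 and 15 of 21 lay wholly above WT (all genes 14.4%). Granulocyte-monocyte progenitor genes had 6 of 21 wholly above WT (28.6%, all genes 7.67%) and a median of 0.41. The median was 0.98 without KO replicate 1 and 0.09 without KO replicate 3. Prtn3, proteinase 3, did not depend on that library: it was at 211, 277 and 274 FPKM in KO and at 131, 161 and 119 FPKM in WT (log2 difference 0.88, adjusted p = 0.167). Ly86, a partner of a Toll-like receptor homologue, was at 3.00, 8.04 and 13.1 FPKM in KO and 1.93, 2.07 and 1.36 FPKM in WT, Mpo, myeloperoxidase, was at 49.7, 138 and 427 FPKM in KO and 147, 71.1 and 95.8 FPKM in WT, and Srgn differed by -0.01. Some B lineage markers were highest in KO replicate 1, but the one of highest level was not. Igll1 and Vpreb1, of the surrogate light chain, were at 6.95 and 6.65 FPKM in that library. They were at most 1.55 and 1.19 FPKM in the other KO libraries and 1.36 and 2.58 FPKM in WT. The part of these cell type markers in the other results was not tested.

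**Figure D3:**
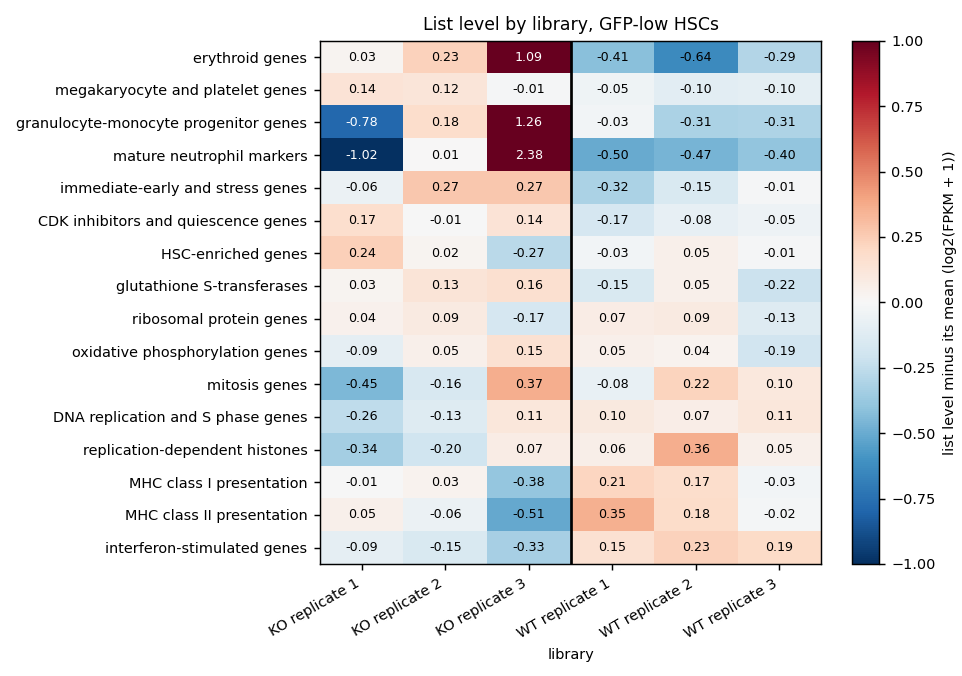
Level of 16 gene lists (mean log2(FPKM + 1) over tested members) in each of the 6 libraries, KO left of WT, minus the list's mean over the libraries; colours end at -1 and 1. KO replicate 3 is far above the other libraries in neutrophil and granulocyte-monocyte progenitor genes, KO replicate 1 is lowest there and in mitosis genes, and interferon-stimulated genes are negative in all 3 KO libraries and positive in all 3 WT libraries.

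HSC-enriched genes had 4 of 42 wholly above WT and 4 wholly below (9.52% each), near the background of 7.67% and 6.42%. Their median was 0.03. It was -0.14 without KO replicate 1, where 11 lay wholly below (26.2%, all genes 13.2%). Without KO replicate 3 it was 0.14, and 13 lay wholly above (31.0%, all genes 15.3%). Kit, the stem cell factor receptor used to sort these cells in most schemes, was at 168, 165 and 123 FPKM in KO and at 97.2, 116 and 112 FPKM in WT (log2 difference 0.47, adjusted p = 0.468). Pdzk1ip1, a membrane protein known as an HSC marker, was at 165, 162 and 113 FPKM in KO and 75.5, 113 and 90.6 FPKM in WT (log2 difference 0.65, with a slight overlap), and Ifitm1 had a log2 difference of -0.32 with overlap. Ribosomal proteins (78 genes, median -0.01) had 1 member wholly above WT and 1 wholly below (1.28% each). Without WT replicate 3, 15 lay wholly below (19.2%, all genes 9.33%). Oxidative phosphorylation (73 genes, median 0.08) had 3 wholly above and 0 below (4.11% and 0%, all genes 7.67% and 6.42%), so both shares were under the background. Its median was 0.13 without KO replicate 1, and -0.008 with 41 of 73 negative without WT replicate 3. Medians of glycolysis (24 genes, 0.04), Polycomb (29 genes, -0.02) and DNA methylation genes (16 genes, -0.01) also lay close to 0. Replication-coupled histone chaperones had 10 of 13 negative members and a median of -0.17, with 1 wholly below WT (7.69%, all genes 6.42%). Without KO replicate 3 the chaperone median was -0.34 with 7 of 13 wholly below WT (53.8%, all genes 14.3%), and it was -0.08 without KO replicate 2. Of the 19 tested neighbours of Hira on chromosome 16 (median -0.02), 2 lay wholly above WT and 1 wholly below (10.5% and 5.26%, all genes 7.67% and 6.42%). In macrophage markers the median was 0.09 over 8 genes (0.20 without KO replicate 3, 0.19 without KO replicate 1), with 4 positive and 4 negative. Only 1 of the 8 lay wholly above WT (12.5%, all genes 7.67%) and 0 wholly below. That member was C1qb, a complement component, at 4.88, 3.82 and 9.35 FPKM in KO and 2.64, 2.45 and 1.42 FPKM in WT.

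**Figure D4:**
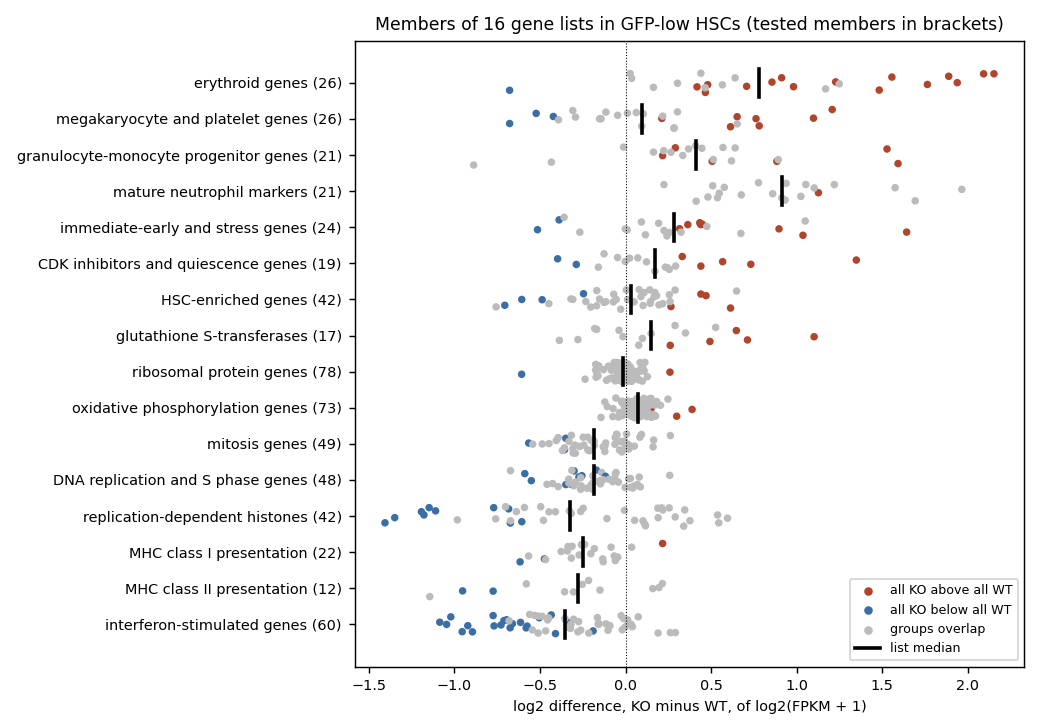
Log2 difference (KO minus WT) of every tested member of 16 gene lists in GFP-low HSCs, 1 point a gene, with the list median as a black bar; red and blue points are genes whose groups do not overlap, and grey points overlap. Erythroid genes lie mostly right of 0 with many red points, interferon-stimulated genes mostly left with many blue ones, and neutrophil markers are all right of 0 but nearly all grey.

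GFP-high HSCs, which had divided less, gave a direct contrast, since the difference of the KO effects (GFP-low minus GFP-high) could be tested across 10501 genes. Of these 0 passed by limma (smallest adjusted p = 0.999), and 352 (3.35%) had an unadjusted p under 0.05. The same fit with same-numbered libraries kept as 1 animal also called 0. In GFP-high HSCs alone, 3 of 10850 genes (0.0276%) passed. Among the genes named above, C1qb and Klf1 had the smallest p for this difference. Klf1 had log2 differences of 1.48 in GFP-low and -0.40 in GFP-high HSCs (difference 1.89, 95% interval 0.87 to 2.90, unadjusted p = 0.00143). C1qb, at 1.09 and -0.94, had a difference of 2.03 (unadjusted p = 0.00129). Rhag was on the same side in both, at 1.94 in GFP-low and 0.89 in GFP-high HSCs (difference 1.05, 95% interval 0.28 to 1.82, unadjusted p = 0.0113). The erythroid list median was 0.78 in GFP-low and -0.23 in GFP-high HSCs. The list medians were -0.35 and -0.25 for interferon-stimulated genes, -0.32 and -0.49 for replication-dependent histones, -0.18 and -0.39 for mitosis and 0.29 and 0.30 for immediate-early and stress genes. A difference between the populations was not detectable for any gene at this size, which does not show that they respond alike.

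Values for the same genes in other sorts stand beside these, with levels not compared because each table was scaled on its own. In GFP-low MPPs, multipotent progenitors of the same sort design, 34 of 10621 genes (0.32%) passed, and in total HSCs of the other cohort 17 of 13717 (0.124%). Rhag had a log2 difference of 2.00 in GFP-low MPPs, where it passed (adjusted p = 0.035), and 1.15 in total HSCs (adjusted p = 0.0507). Selenom passed in both, with 1.04 in GFP-low MPPs (adjusted p = 0.0463) and 0.87 in total HSCs (adjusted p = 0.00982). Ctsw and F2r fell in GFP-low MPPs by 1.62 and 1.10 on the log2 scale (adjusted p = 0.0238 and 0.0421), while in total HSCs they differed by -0.87 and 0.02. Cd24a passed in total HSCs (log2 difference 0.66, adjusted p = 0.039), as did Btg2 (0.94, adjusted p = 0.039), and Car2 passed in GFP-low MPPs (0.83, adjusted p = 0.0447). Other erythroid genes past the test in GFP-low MPPs were Gata1 (1.62, adjusted p = 0.035), Epor (1.32, adjusted p = 0.0228) and Aqp1, a water channel of red cells (1.46, adjusted p = 0.035), and interferon-stimulated genes past it were Gbp2 (-0.88), Oas3 (-0.78) and Parp9 (-0.84), with adjusted p between 0.0421 and 0.0468. These 6 genes were named after their values in GFP-low MPPs were seen. Prtn3 passed in GFP-high HSCs (0.76, adjusted p = 0.0383). H2ac8 and H2ac4 had log2 differences of -1.08 and -1.003 in GFP-low MPPs and 0.12 and 0.01 in total HSCs. H3f3a had 0.45 in GFP-low MPPs, 0.36 in GFP-high HSCs and 0.31 in total HSCs and passed in none of them. Libraries of different sorts may come from the same mice, so these values are not independent of the GFP-low HSC values.

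**Figure D5:**
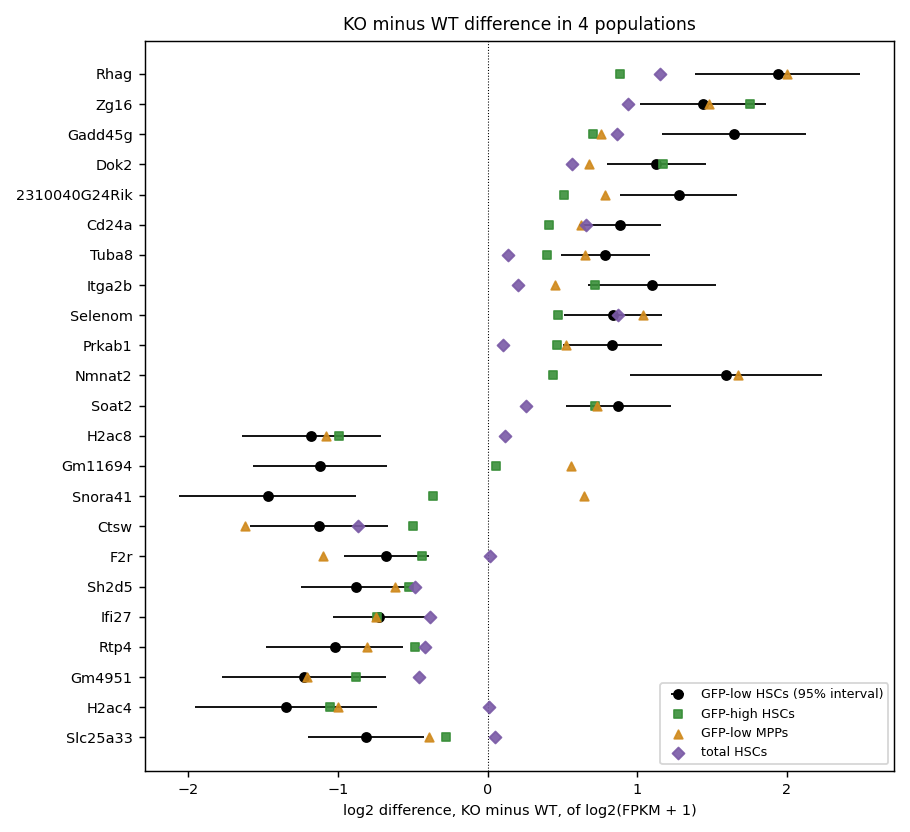
Log2 difference (KO minus WT) of the 12 higher and 11 of the lower genes of smallest p in GFP-low HSCs (black, with 95% intervals), and the same genes in GFP-high HSCs (squares), GFP-low MPPs (triangles) and total HSCs (diamonds); a missing mark is a gene not tested there. The genes were chosen on the black values; Rhag is near 2 in GFP-low HSCs and GFP-low MPPs, and H2ac8, H2ac4 and F2r are near 0 in total HSCs.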

How the data were processed

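RNA was extracted with Trizol, amplified by SMART-Seq2 and made into Nextera XT libraries, per the labels' protocols; whether strand was kept is not given in the sources used here, so antisense or overlapping genes and close paralogs are uncertain. The authors deposited FPKM for each gene and library; the submitters' processing notes name STAR, DESeq2, HOMER and mm10 with no role or version. All libraries of a table had the same median ratio to the genes' geometric mean, so values were scaled within a table and levels were compared within 1 table only. FPKM stepped by whole reads in 100% of genes (within 0.01 of a whole number), which gave the depths; 0 value columns belonged to no sample.

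Group tests were made in R 4.3.3 with limma 3.58.1 (log2(FPKM + 1), trended variance prior, two-sided) for genes at FPKM 1 or more in at least 3 of 6 libraries (4 of 8 in total HSCs), with Benjamini-Hochberg adjustment over all tested genes, a threshold of 0.05 and 95% intervals. This scale understates changes of low genes. The difference of KO effects was an interaction term over both GFP sorts. The script was tested on simulated data. Replicates are separate labelled samples. The labels do not say that they came from separate mice, and sex-linked genes set only KO replicate 2 apart. The p values therefore measure the spread between these libraries. Same-numbered GFP-low and GFP-high libraries deviated together from their group means (r = 0.158 to 0.357 in 6 pairs). Same-numbered KO and WT libraries gave lower values (0.003 to 0.131). For KO replicates 1 and 2 the same-numbered WT library had the highest r of the WT libraries, so pairing across genotypes is not settled.

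Genes were named by a rule: the HIRA list, the 12 higher and 12 lower genes of smallest p with mean log2(FPKM + 1) of 2 or more, and, for the lists described singly, the 2 members of smallest p and the 2 of highest level; a few genes that this rule names are not reported here. Klf1, Gata1, Epor, Tfrc, Tal1, Junb, Gbp3, Slfn8, Irf9, Gstm2, Mpo, H2bc8 and the cell type markers Procr, Cd3d, Cd3e, Lat, Lck, Nkg7, Ear2 and Ddx3y were added after values were seen. The 37 gene lists and the comparison were chosen with earlier results of these data known, so list counts are descriptions.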

Additional observations from a re-analysis of the deposited data

How the results depend on the processing

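Of the settings tried, the count of genes past the test stayed at 0 except with library quality weights (3, all higher in KO), in the joint fit with GFP-high HSCs (7, all higher) and without KO replicate 1; over the fits leaving out 1 library it ranged from 0 to 7. The labels do not say that same-numbered KO and WT libraries are paired, and the fit with a replicate block called 0 (927 genes at an unadjusted p under 0.05, against 917). The difference of KO effects kept its count of 0 under every setting run, its replicate block included. Rescaling to one FPKM total, with and without Rn45s (the second chosen after seeing the data), moved the median of all genes to -0.039 and -0.087. Hira turned to 0.084 with quality weights and ranged from -0.24 to 0.19 over left-out libraries.

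Among 97 named genes, 41 of the values recomputed had the other sign; the cause was not tested. With one FPKM total these were Rbbp4 (-0.0027), Ifitm3 (-0.030), Ccnb2 (-0.026) and Trp53 (-0.033), and without Rn45s H3f3b (-0.032), Rbbp4 (-0.059), Ifitm3 (-0.087), Dut (-0.029), Ccnb2 (-0.082), Cdc20 (-0.046), Hspa8 (-0.0055) and Trp53 (-0.089). Quality weights gave Rbbp4 -0.038 and voom gave Ccnb2 -0.0006. Over left-out libraries the ranges were -0.0098 to 0.12 (Rbbp4), -0.30 to 0.11 (Rbbp7), -2.26 to 0.73 (Prg2), -0.067 to 0.13 (Ifitm3), -0.22 to 0.024 (H2-K1), -0.043 to 0.16 (Dut), -0.34 to 0.43 (Ccnb2), -0.33 to 0.48 (Cdc20), -0.45 to 0.26 (Txnip), -0.029 to 0.20 (Hspa8), -0.031 to 0.015 (Srgn), -0.092 to 1.71 (S100a8), -0.49 to 1.38 (S100a9), -0.049 to 0.070 (Trp53), -0.25 to 0.66 (Vpreb1) and -0.27 to 1.27 (Mpo). The other 1496 of 1537 values kept their sign. Of the 34 list medians recomputed, 18 changed sign in at least 1 setting (46 of 541 values).

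With 3 libraries a group and low genes resting on few reads, small differences are not detectable.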
